A study of Mus musculus with 11 samples.

Results

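The amino acid stress module is a set of 37 genes that cells switch on when amino acids run short or when the endoplasmic reticulum is stressed, together with the enzymes of serine synthesis. The members were named by gene symbol, and all 37 were found among the 22068 gene symbols of the series. By role they comprise 11 transcription factors and stress regulators, 7 enzymes of serine synthesis and mitochondrial one-carbon metabolism, 7 other amino acid enzymes, 10 amino acid transporters and 2 secreted or surface proteins. RNA was sequenced from CD11b+ myeloid cells that antibodies and magnetic beads had enriched out of subcutaneous tumours, without culture. Every tumour had received 15 Gy of local irradiation and was taken on day 4 after it, and every mouse had a C57BL/6 background. The groups were STAT3KO (STAT3-/-, MxCre with Stat3flox, n = 4 libraries), TLR9KO (TLR9-/-, n = 4) and WT (wild type, n = 3). The Mx promoter that drives Cre responds to interferon and is not limited to myeloid cells, whereas the TLR9 deletion is carried by the whole mouse. All groups were irradiated, so the comparisons are between genotypes of irradiated hosts. The labels do not say whether replicates came from separate animals, so p-values measure only the spread among libraries, part of which may be technical.

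The pathway works as follows. Uncharged tRNA, misfolded protein, haem shortage or viral RNA each activate a kinase that phosphorylates the initiation factor eIF2, which slows translation in general and favours translation of the transcription factor ATF4. ATF4 binds composite C/EBP-ATF elements with C/EBP partners and turns on amino acid transporters, amino acid synthesis enzymes and further regulators such as CHOP and TRIB3. ATF4 protein is set largely by translation, so the level of Atf4 RNA is not a measure of ATF4 activity. In macrophages, serine synthesis and amino acid uptake are known to feed growth, one-carbon metabolism and cytokine production.

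The module did not move as one. In STAT3KO cells Atf4, Atf3, Ddit3, Ppp1r15a and Nupr1 rose against WT while 9 enzymes and transporters fell, among them Slc7a5, Aldh18a1 and Gpt2. In TLR9KO cells Atf4, Atf3 and Ppp1r15a rose as well, but 12 members fell, and these included Phgdh, Asns and Trib3. Phgdh, Asns, Trib3, Sesn2, Ddit3 and Atf4 were higher in STAT3KO than in TLR9KO. Expression is given in RPKM (reads per unit of transcript length and of library size), and the 30 members whose values averaged 1 RPKM or more were tested among 10557 genes on the log2(RPKM + 1) scale, with limma and Benjamini-Hochberg adjustment over all of those genes at a threshold of 0.05. Since this scale understates the change of low genes, ratios of mean RPKM are given for several members.

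Against WT, 5 of the 30 tested members were called higher in STAT3KO (16.7%), where 29.2% of all tested genes were. The members called lower were 9 (30.0%), where 14.8% of all tested genes were. The median log2 difference of the members was -0.39, and that of all tested genes was 0.09. In TLR9KO, 3 members were called higher than WT (10.0%, against 20% of all tested genes) and 12 lower (40.0%, against 10.6% of all tested genes). Here the median was -0.33 for the members and 0.04 for all tested genes. Between the knockouts, 6 members were called higher in STAT3KO than in TLR9KO (20%, against 13.4% of all tested genes) and 2 lower (6.67%, against 9.46%). The median of this difference was 0.15 for the members and 0.06 for all tested genes. Both comparisons with WT use the same 3 WT libraries, so their calls are not independent of each other.

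Members were also counted by whether the libraries of 2 groups overlapped. Of the tested members, 5 had every STAT3KO library above every WT library and 13 had every STAT3KO library below, where 30.8% and 16.9% of all tested genes did. TLR9KO libraries lay wholly above WT for 3 members and wholly below for 12, where 22.8% and 13.3% of all tested genes did. STAT3KO libraries lay wholly above TLR9KO for 6 members and wholly below for 1, where 16.4% and 10.6% of all tested genes did. In all, 21 members passed in at least 1 comparison and 9 in none. Atf4, Atf3 and Ppp1r15a were called higher in both knockouts, and Shmt2, Aldh18a1, Slc7a5, Slc38a1 and Slc1a5 were called lower in both. For these combined counts no share of all tested genes was computed, so nothing particular to the members is read from them.

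These counts depend on single libraries and on scaling. Without WT replicate 1 the members called in TLR9KO against WT were 8 in place of 15, and all genes called were 1985 in place of 3229. Without STAT3KO replicate 2 the members called between the knockouts were 4 in place of 8, with 1817 genes called in all in place of 2409. Without TLR9KO replicate 4 the members called between the knockouts were 5, with 1577 genes called in all. Median-ratio scaling of the libraries moved the median of all genes between STAT3KO and WT to -0.02, and the higher and lower calls over all genes became 2167 and 2286 in place of 3083 and 1565. With this scaling 5 members were called higher and 14 lower in STAT3KO than in WT, in place of 5 and 9. With the same scaling the calls over all genes became 1680 higher and 1544 lower in TLR9KO against WT (2107 and 1122 as deposited), and 919 higher and 1189 lower in STAT3KO against TLR9KO (1410 and 999 as deposited). A correction for GC content and transcript length left 1286 higher and 391 lower calls in TLR9KO against WT, with 11 members called. Across the 10421 genes with an annotation, which share libraries, the difference between TLR9KO and WT had a Spearman correlation with GC content of -0.546, and that between STAT3KO and WT of -0.227. With transcript length the correlation was -0.194 for TLR9KO against WT and -0.335 for STAT3KO against WT. For STAT3KO against TLR9KO it was 0.317 with GC content and -0.270 with length. No member call changed sign under any of the 19 alternatives run per comparison.

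**Figure D1:**
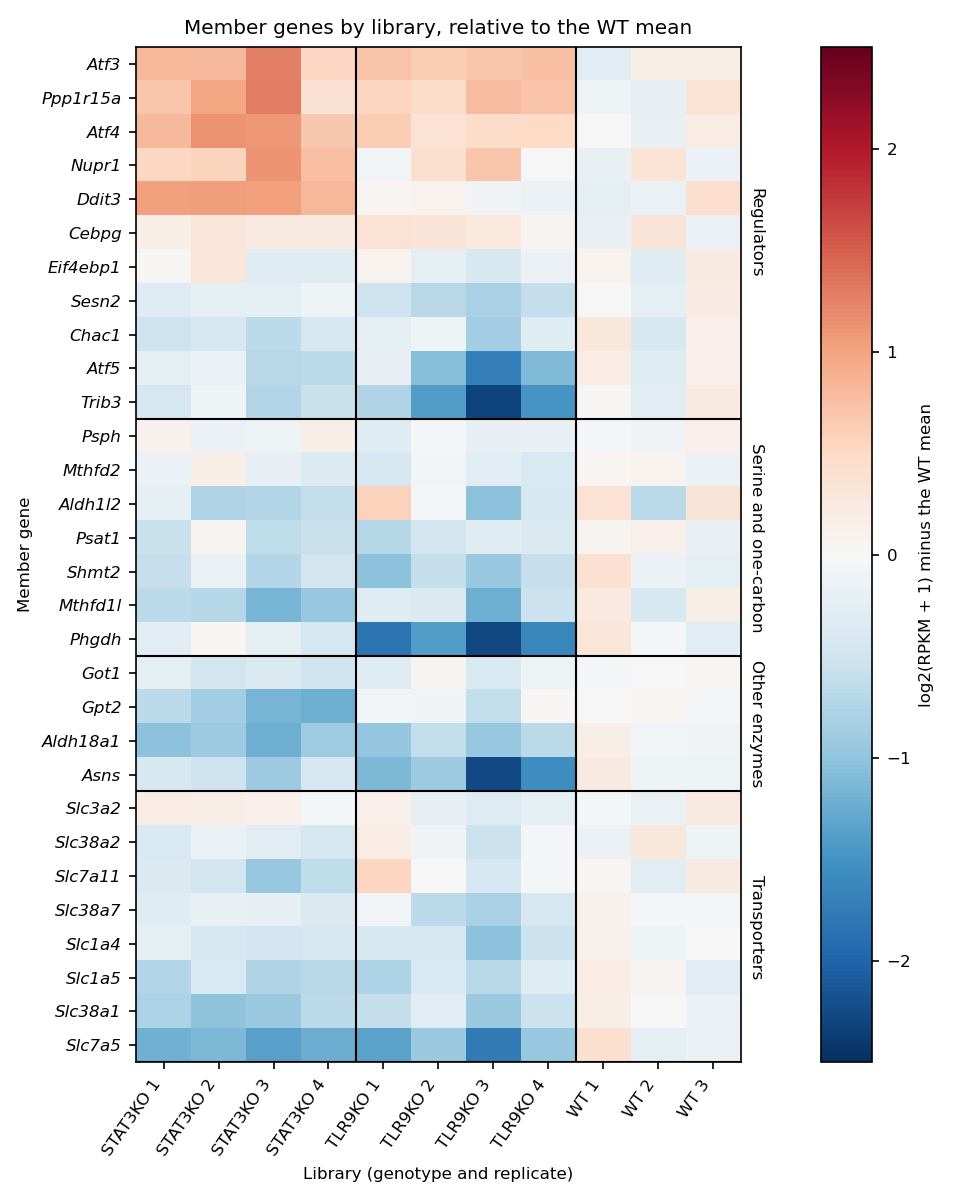
Each row is 1 of the 30 tested members, ordered by role, and each column 1 library. Colour gives log2(RPKM + 1) minus the mean of the 3 WT libraries, with red above and blue below that mean. Atf3, Ppp1r15a and Atf4 are above the WT mean in all 8 knockout libraries, Ddit3 is above it in all 4 STAT3KO libraries, and Phgdh, Asns and Trib3 have their darkest blue in TLR9KO replicate 3.

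The depth of the libraries, estimated from the steps of low values, was 30.0 to 53.45 M reads. The estimate used 27 to 48 microRNA values per library. In STAT3KO replicates 3 and 4, 75.0% and 77.1% of these fitted the depth chosen, against 88.6% to 97.1% in the other libraries. The targeted genes and CD11b were checked against the labels. Stat3 averaged 18.2 ± 1.85 RPKM in STAT3KO, 64.3 ± 4.27 RPKM in TLR9KO and 73.1 ± 2.78 RPKM in WT (SD). Tlr9 averaged 32.5 ± 19.5 RPKM in STAT3KO, 5.77 ± 1.72 RPKM in TLR9KO and 30.3 ± 10.6 RPKM in WT. Itgam, which encodes CD11b, averaged 218 ± 18.2 RPKM in STAT3KO, 242 ± 62.9 RPKM in TLR9KO and 301 ± 10.5 RPKM in WT. Markers of some other cells differed between groups. Of all tested genes, 29.2% were called higher and 14.8% lower in STAT3KO than in WT. In TLR9KO against WT the shares were 20% and 10.6%, and 13.4% were called higher in STAT3KO than in TLR9KO. The summed level of 6 fibroblast genes was 12.0 to 26.4 RPKM in STAT3KO, 8.41 to 37.4 RPKM in TLR9KO, against 1.38 to 3.38 RPKM in WT, and the 3 of them that were tested were higher in both knockouts. The sum of 6 erythroid genes was 2.72 to 49.6 RPKM in STAT3KO and 0.56 to 3.31 RPKM in TLR9KO, against 42.6 to 169 RPKM in WT, and the 4 tested were lower in both knockouts. The 9 macrophage genes, all tested, summed to 5866 to 7579 RPKM in STAT3KO and 4205 to 7098 RPKM in TLR9KO, against 4185 to 4996 RPKM in WT. Of these, 6 were called higher and 1 lower in STAT3KO than in WT. Of 6 proliferation genes, 2 were called higher in STAT3KO than in WT, which is near the share of all tested genes. Their sum was 190.7 to 277.9 RPKM in STAT3KO and 140 to 180 RPKM in TLR9KO, against 112.7 to 158.2 RPKM in WT. Melanocyte genes, 6 in the files, summed to 625 to 956 RPKM in STAT3KO, 357 to 982 RPKM in TLR9KO, against 327 to 1071 RPKM in WT, with overlapping ranges. The sum of the dendritic cell genes was 27.2 to 61.2 RPKM in STAT3KO and 78.5 to 149 RPKM in TLR9KO, against 137.5 to 210.2 RPKM in WT, and of the 3 tested 1 was lower in STAT3KO than in WT. The B cell genes summed to 1.7 to 4.65 RPKM in STAT3KO and 0.71 to 1.61 RPKM in TLR9KO, against 0.62 to 0.82 RPKM in WT, and the 1 tested was higher in STAT3KO than in both other groups. The neutrophil genes summed to 578 RPKM in STAT3KO replicate 2 and 79.3 to 105 RPKM in the other 3 STAT3KO libraries, 67.1 to 246 RPKM in TLR9KO, against 56.6 to 170.5 RPKM in WT. The part of these cells in the results on the members was not tested. In such bulk RNA, fewer cells of a type and less RNA per cell cannot be told apart.

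The element that ATF4 is known to bind with C/EBP partners reads TGATGNAAN, and the promoters of the members were searched for it on both strands, in 300 bases from 250 before to 50 after each start. A promoter sequence was matched for 30 members in RefSeq (assembly GRCm38.p6, which is not the build of the expression files). The motif was present in the promoters of 10 of these members (33.3%) and of 1215 of all 27025 symbols with a sequence (4.50%). The members were chosen as genes of this pathway, so a higher share among them follows from the choice and is no result of these data. Of the 9 members with a sequence that were called lower in TLR9KO than in WT, 3 had the motif (33.3%). The windows below are shown because they link members with opposite differences. Capitals mark the 9 bases of the motif with 10 bases on each side, written 5′ to 3′ on the strand that carries it.
Asns, chr6:7693214-7693242, minus strand: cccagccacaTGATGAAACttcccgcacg
Trib3, chr2:152344029-152344057, plus strand: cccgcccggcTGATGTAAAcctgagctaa
Atf3, chr1:191183426-191183454, plus strand: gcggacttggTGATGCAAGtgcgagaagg
Chac1, chr2:119351038-119351066, minus strand: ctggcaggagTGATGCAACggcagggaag
Nupr1, chr7:126625563-126625591, plus strand: aagccctgtcTGATGCAATctggcccttt
Slc1a4, chr11:20332700-20332728, plus strand: aggctggagaTGATGCAACgcaggaggca
Got1, chr19:43524690-43524718, plus strand: gaggcttgtaTGATGCAACcaatgcaatg
Slc7a11, chr3:50443661-50443689, minus strand: ctcatgtggcTGATGCAAAcctggagaat
Slc7a11, chr3:50443643-50443671, plus strand: ggctgcatgaTGATGCAAAttctccaggt

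Pycr1 and Vldlr, which were below the filter, were the other 2 members with the motif. Of the members shown, Atf3 and Nupr1 were called higher in STAT3KO than in WT, Got1 and Slc7a11 were called lower in STAT3KO, and Trib3, Asns and Slc1a4 were called lower in TLR9KO, while Chac1 passed in none. The motif thus occurs in promoters of members called in either direction. In Asns the centre of the motif lay 19 bases upstream of the start, and in Trib3 it lay 17 bases downstream. The whole Asns promoter is printed because this gene is the textbook target of the pathway, with the motif in capitals (chr6:7693160-7693459, minus strand).
Asns: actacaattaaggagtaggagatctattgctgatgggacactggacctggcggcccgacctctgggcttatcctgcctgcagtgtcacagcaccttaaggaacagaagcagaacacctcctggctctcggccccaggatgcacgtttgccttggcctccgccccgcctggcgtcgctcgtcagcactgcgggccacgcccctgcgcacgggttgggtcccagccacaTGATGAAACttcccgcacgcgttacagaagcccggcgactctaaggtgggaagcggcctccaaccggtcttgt
A match of letters is a description of the sequence and shows no binding. No promoter entry was matched for Slc7a3, Slc7a5, Cth, Aldh1l2, Slc38a1, Eif4ebp1 and Slc1a5.

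Among the regulators, 5 of 11 were called higher in STAT3KO than in WT (45.5%, against 29.2% of all tested genes) and the other 6 did not pass. In TLR9KO 3 were called higher than WT (27.3%, against 20% of all tested genes), 3 lower (27.3%, against 10.6%) and 5 did not pass. Between the knockouts 4 were called higher in STAT3KO (36.4%, against 13.4% of all tested genes). Atf4, the transcription factor at the centre of the pathway, had 127, 156, 154 and 116 RPKM in STAT3KO, 112, 92.6, 98.3 and 101 RPKM in TLR9KO and 71.1, 63.2 and 82.0 RPKM in WT. The 3 groups did not overlap, with STAT3KO highest and WT lowest. The STAT3KO mean of 138 ± 20.2 RPKM was 1.92 times the WT mean of 72.1 ± 9.47 RPKM (log2 difference 0.93 ± 0.13 SE, limma adjusted p = 0.000295). The TLR9KO mean of 101 ± 8.14 RPKM was 1.40 times that of WT (0.49 ± 0.13, limma adjusted p = 0.0155), and STAT3KO exceeded TLR9KO by 0.44 ± 0.12 (limma adjusted p = 0.0228). The first of these differences passed in all 19 alternatives. The TLR9KO difference missed the threshold without WT replicate 1 (limma adjusted p = 0.0540) or WT replicate 2 (0.0520), with a range of 0.0132 to 0.0540 over the alternatives. The difference between the knockouts missed it without STAT3KO replicate 2 (limma adjusted p = 0.0607), STAT3KO replicate 3 (0.0574), TLR9KO replicate 2 (0.0658) or TLR9KO replicate 4 (0.0542), after median-ratio scaling (0.0620) and after GC and length correction (0.0769), with a range of 0.0116 to 0.112.

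Atf3, a stress-induced bZIP factor, was the most highly expressed member. It had 303, 300.4, 409 and 245 RPKM in STAT3KO, 282, 266, 277 and 289 RPKM in TLR9KO and 139, 188 and 190.4 RPKM in WT. Every knockout library lay above every WT library, and the knockouts overlapped. The difference from WT was 0.85 ± 0.16 in STAT3KO (limma adjusted p = 0.00177) and 0.70 ± 0.16 in TLR9KO (limma adjusted p = 0.00814). Ppp1r15a encodes GADD34, which brings a phosphatase to phosphorylated eIF2 and so closes the feedback loop. It had 83.8, 103, 125 and 66.8 RPKM in STAT3KO, 74.4, 71.2, 88.3 and 84.7 RPKM in TLR9KO and 46.6, 44.2 and 65.4 RPKM in WT. Again both knockouts lay above WT without overlap, although STAT3KO replicate 4 and WT replicate 3 were close. The differences were 0.83 ± 0.20 in STAT3KO (limma adjusted p = 0.00629) and 0.62 ± 0.20 in TLR9KO (limma adjusted p = 0.0366). The TLR9KO call was lost without TLR9KO replicate 2 (limma adjusted p = 0.0502), TLR9KO replicate 3 (0.0815), TLR9KO replicate 4 (0.0784), WT replicate 1 (0.126) or WT replicate 2 (0.103), after median-ratio scaling (0.0692) and with no filter on low genes (0.0682), with a range of 0.0126 to 0.126 over the alternatives.

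Ddit3 separated the knockouts. It encodes CHOP, a C/EBP-family factor linked to cell death under prolonged stress. Its values were 71.3, 72.2, 70.6 and 61.5 RPKM in STAT3KO, 35.5, 36.8, 32.1 and 31.1 RPKM in TLR9KO and 28.7, 30.6 and 46.2 RPKM in WT. STAT3KO lay above all other libraries, while TLR9KO lay within the range of WT. The STAT3KO mean of 68.9 ± 4.96 RPKM was 1.96 times that of WT, at 35.2 ± 9.61 RPKM (log2 difference 0.98 ± 0.14, limma adjusted p = 0.000426), and 2.04 times that of TLR9KO, at 33.8 ± 2.70 RPKM (1.00 ± 0.13, limma adjusted p = 0.000794). The difference of TLR9KO from WT was -0.03 ± 0.14 and did not pass (limma adjusted p = 0.909). Nupr1, a small stress-induced chromatin protein, had 24.2, 24.9, 37.4 and 29.0 RPKM in STAT3KO, 15.9, 22.5, 27.5 and 16.7 RPKM in TLR9KO and 14.5, 21.4 and 15.0 RPKM in WT. STAT3KO lay above WT without overlap, and TLR9KO overlapped both. Its difference of STAT3KO from WT was 0.74 ± 0.21 (limma adjusted p = 0.0160). It was lost without WT replicate 1 (limma adjusted p = 0.0654) or WT replicate 3 (0.0587), and after GC and length correction it was 0.48 (limma adjusted p = 0.106), with a range of 0.00229 to 0.106 over the alternatives.

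**Figure D2:**
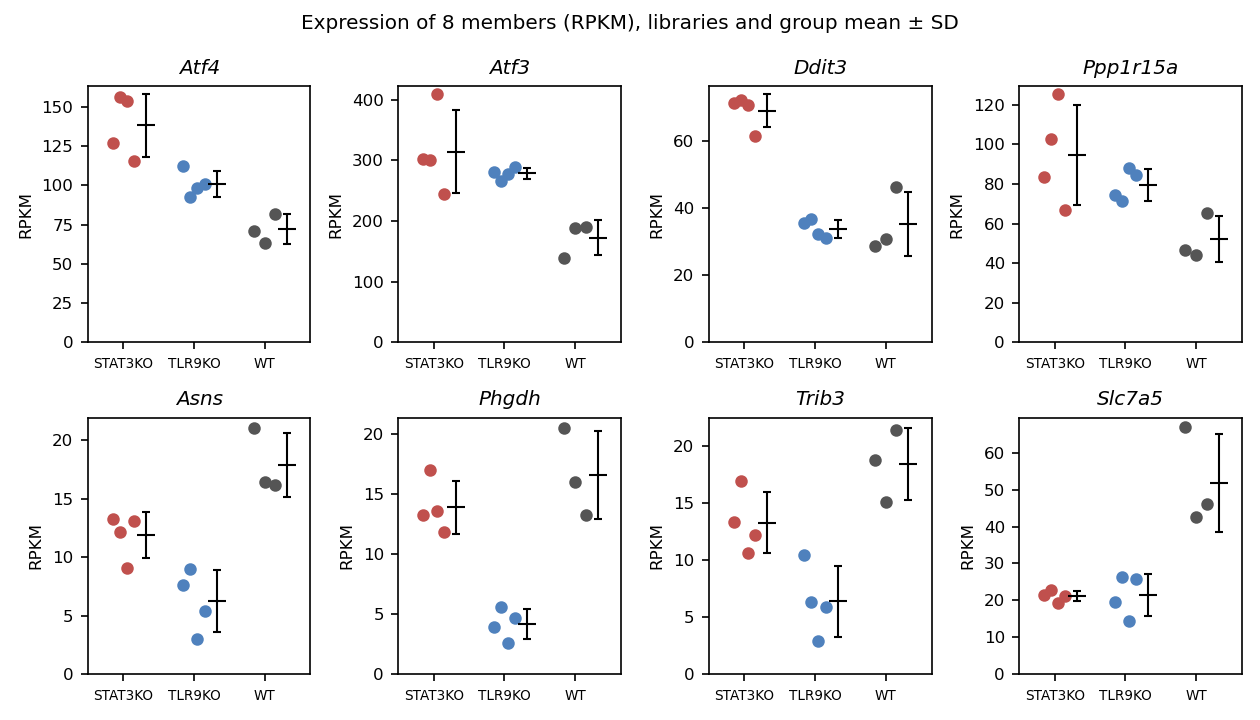
Points are libraries and bars are the group mean ± SD, in RPKM on a linear axis from 0, for STAT3KO (n = 4), TLR9KO (n = 4) and WT (n = 3). Atf4, Atf3 and Ppp1r15a are above WT in both knockouts, Ddit3 is above WT in STAT3KO, Phgdh is lowest in TLR9KO with 2.60 to 5.60 RPKM, and Slc7a5 is at 19.3 to 22.7 RPKM in STAT3KO and 14.3 to 26.2 RPKM in TLR9KO, below the 42.5 to 67.0 RPKM of WT.

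Trib3, Sesn2 and Atf5 moved the other way in TLR9KO. In STAT3KO their differences from WT were also negative, at -0.45, -0.23 and -0.44, and did not pass (limma adjusted p = 0.240, 0.107 and 0.243). With array weights all of these STAT3KO differences passed (limma adjusted p = 0.0349, 0.0209 and 0.0378). Trib3 encodes a pseudokinase that is induced by ATF4 and restrains it. It had 13.4, 16.9, 10.6 and 12.2 RPKM in STAT3KO, 10.4, 6.33, 2.85 and 5.88 RPKM in TLR9KO and 18.7, 15.1 and 21.4 RPKM in WT. TLR9KO lay below both other groups without overlap, and its replicate 3 was lowest. TLR9KO averaged 6.36 ± 3.10 RPKM, 34.6% of the 18.4 ± 3.16 RPKM in WT (log2 difference -1.49 ± 0.29, limma adjusted p = 0.00379). STAT3KO averaged 13.3 ± 2.70 RPKM and exceeded TLR9KO by 1.04 ± 0.27 (limma adjusted p = 0.0199), a call lost without STAT3KO replicate 2 (limma adjusted p = 0.0554, over a range of 0.00181 to 0.0554). Sesn2, a leucine sensor that restrains mTORC1, had 16.2, 17.3, 17.1 and 18.8 RPKM in STAT3KO, 13.9, 12.3, 11.3 and 13.2 RPKM in TLR9KO and 20.7, 17.5 and 23.7 RPKM in WT. TLR9KO was again the low group, without overlap with either other group. It differed from WT by -0.65 ± 0.11 (limma adjusted p = 0.00162), which became -0.30 after GC and length correction (limma adjusted p = 0.0310, and 0.0614 with the replicate block added, over a range of 0.000231 to 0.0614), and STAT3KO exceeded TLR9KO by 0.42 ± 0.10 (limma adjusted p = 0.0127). Atf5, a bZIP factor that, like ATF4, is controlled by translation, had 28.8, 30.4, 20.6 and 21.5 RPKM in STAT3KO, 29.3, 15.9, 9.75 and 15.5 RPKM in TLR9KO and 38.8, 27.5 and 37.4 RPKM in WT. TLR9KO replicate 1 lay inside the WT range and the other 3 TLR9KO libraries below it. Between the knockouts the Atf5 difference of 0.58 ± 0.27 did not pass (limma adjusted p = 0.136). The difference of TLR9KO from WT was -1.02 ± 0.29 (limma adjusted p = 0.0206), and it missed the threshold without WT replicate 1 (limma adjusted p = 0.0796) or WT replicate 3 (0.0701) and after GC and length correction (0.0767), over a range of 0.00147 to 0.0796.

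The remaining regulators passed in none of the comparisons. Cebpg, the C/EBP partner of ATF4, ranged from 6.60 to 10.1 RPKM over all libraries. Chac1, which degrades glutathione, ranged from 0.53 to 2.40 RPKM. Its STAT3KO libraries lay below the WT libraries without overlap, with a log2 difference of -0.51 ± 0.20 that did not pass (limma adjusted p = 0.0569). This Chac1 difference passed in 6 of the 19 alternatives. Eif4ebp1, the repressor that binds the cap-binding factor eIF4E, ranged from 85.9 to 139.9 RPKM, with all groups overlapping.

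Serine synthesis was set apart by its first enzyme. Of the 7 enzymes of serine synthesis and mitochondrial one-carbon metabolism, 2 fell in each knockout against WT (28.6%), Shmt2 and Mthfd1l in STAT3KO and Phgdh and Shmt2 in TLR9KO. Of all tested genes, 14.8% were called lower in STAT3KO than in WT and 10.6% in TLR9KO. Phgdh, which takes 3-phosphoglycerate into serine synthesis, had 13.3, 17.0, 13.5 and 11.8 RPKM in STAT3KO, 3.91, 5.60, 2.60 and 4.63 RPKM in TLR9KO and 20.5, 16.0 and 13.3 RPKM in WT. All TLR9KO libraries were below all others, and STAT3KO overlapped WT. TLR9KO averaged 4.18 ± 1.26 RPKM, 25.3% of the 16.6 ± 3.64 RPKM in WT (log2 difference -1.77 ± 0.20, limma adjusted p = 0.000310). The STAT3KO mean of 13.9 ± 2.21 RPKM was 3.32 times that of TLR9KO (1.55 ± 0.19, limma adjusted p = 0.000474). STAT3KO did not pass against WT (-0.23 ± 0.20, limma adjusted p = 0.391). Both calls of Phgdh passed in all 19 alternatives. The mouse genome holds a processed pseudogene of Phgdh, and how reads shared with it were counted is not given in the sources used here.

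The next steps of serine synthesis did not follow Phgdh past the threshold. Psat1, the transaminase of the pathway, ranged from 25.1 to 41.5 RPKM in STAT3KO, 23.5 to 31.8 RPKM in TLR9KO, against 34.5 to 42.8 RPKM in WT. The TLR9KO libraries of Psat1 lay below WT without overlap, with a log2 difference of -0.46 ± 0.17 (limma adjusted p = 0.0619), and that of STAT3KO from WT was -0.42 ± 0.17 (limma adjusted p = 0.0671). Without STAT3KO replicate 2, which had 41.5 RPKM, the STAT3KO difference was -0.58 and passed (limma adjusted p = 0.00408). It also passed with all libraries after median-ratio scaling, with array weights, and after GC and length correction. In all, the STAT3KO difference of Psat1 passed in 4 of the 19 alternatives and the TLR9KO difference in 3. Psph, the phosphatase that releases serine, ranged from 3.11 to 4.02 RPKM in STAT3KO and 2.68 to 3.40 RPKM in TLR9KO, against 3.26 to 3.94 RPKM in WT, all overlapping. Its TLR9KO difference from WT was -0.18 ± 0.10 (limma adjusted p = 0.213).

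Shmt2 and Mthfd1l act in mitochondria. Shmt2, which splits serine into glycine and a one-carbon unit, had 20.5, 27.4, 18.3 and 22.3 RPKM in STAT3KO, 14.7, 20.1, 15.6 and 20.6 RPKM in TLR9KO and 40.8, 27.9 and 26.2 RPKM in WT. WT replicate 1 stood above all other libraries, TLR9KO lay below WT without overlap, and STAT3KO replicate 2 lay inside the WT range. The difference from WT was -0.79 ± 0.18 in TLR9KO (limma adjusted p = 0.00794) and -0.49 ± 0.18 in STAT3KO (limma adjusted p = 0.0485). The TLR9KO call passed in all 19 alternatives. The STAT3KO call was lost without any 1 of WT replicates 1 and 2, STAT3KO replicates 1, 3 and 4 and TLR9KO replicates 2, 3 and 4, after GC and length correction (limma adjusted p = 0.108), with the replicate block added to it (0.0610), in a fit of only these 2 groups (0.0600) and with no filter (0.0814). Without WT replicate 1 it was -0.29 (limma adjusted p = 0.214, over a range of 0.00589 to 0.214 in the alternatives). Mthfd1l, which releases formate from mitochondria, had 18.6, 18.2, 13.1 and 15.4 RPKM in STAT3KO, 24.5, 23.6, 12.6 and 20.6 RPKM in TLR9KO and 36.3, 23.0 and 33.9 RPKM in WT. STAT3KO lay below WT without overlap, and TLR9KO overlapped both other groups. Mthfd1l fell by 0.87 ± 0.23 on the log2 scale in STAT3KO (limma adjusted p = 0.00961). The TLR9KO difference of -0.60 ± 0.23 did not pass (limma adjusted p = 0.0644), although it did in 4 of the 19 alternatives. Mthfd2, the dehydrogenase of the same route, ranged from 19.3 to 28.9 RPKM over all libraries, and Aldh1l2, which oxidises formyl-tetrahydrofolate, from 0.33 to 3.04 RPKM, and neither passed in any comparison.

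Among the other amino acid enzymes, 4 of 7 were tested, and 3 of these fell in STAT3KO against WT (75.0%, where 14.8% of all tested genes did) and 2 in TLR9KO (50%, where 10.6% did). Asns, asparagine synthetase, had 13.3, 12.1, 9.06 and 13.1 RPKM in STAT3KO, 7.64, 8.97, 2.95 and 5.40 RPKM in TLR9KO and 21.1, 16.4 and 16.2 RPKM in WT. The 3 groups did not overlap, with STAT3KO between a low TLR9KO and a high WT. TLR9KO averaged 6.24 ± 2.64 RPKM, 34.9% of the 17.9 ± 2.74 RPKM in WT (log2 difference -1.46 ± 0.27, limma adjusted p = 0.00269). The STAT3KO mean of 11.9 ± 1.96 RPKM was 66.5% of WT, a difference of -0.55 ± 0.27 that did not pass (limma adjusted p = 0.116). This difference passed in 4 of the 19 alternatives. These were median-ratio scaling (limma adjusted p = 0.0498), a fit of only these 2 groups (0.0188) and the fit without TLR9KO replicate 3 (0.0246). The last was the replicate block with GC and length correction (0.0337). STAT3KO exceeded TLR9KO by 0.90 ± 0.25 (limma adjusted p = 0.0244). That call was lost without STAT3KO replicate 1 (limma adjusted p = 0.0635), STAT3KO replicate 2 (0.0547), STAT3KO replicate 4 (0.0640) or TLR9KO replicate 4 (0.0631), over a range of 0.00930 to 0.0640.

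Aldh18a1, which makes the proline and ornithine precursor pyrroline-5-carboxylate from glutamate, had 10.8, 11.8, 9.32 and 12.1 RPKM in STAT3KO, 11.4, 14.7, 11.5 and 14.1 RPKM in TLR9KO and 25.8, 22.0 and 21.7 RPKM in WT. All knockout libraries were below all WT libraries. The STAT3KO mean was 47.5% of the WT mean (log2 difference -1.01 ± 0.12, limma adjusted p = 0.000112) and the TLR9KO mean 55.7% (-0.80 ± 0.12, limma adjusted p = 0.00103). Gpt2, the mitochondrial alanine transaminase, had 9.09, 7.69, 6.13 and 5.88 RPKM in STAT3KO, 14.1, 14.0, 9.41 and 15.3 RPKM in TLR9KO and 14.8, 15.5 and 14.6 RPKM in WT. Here STAT3KO was the low group, below every other library, while TLR9KO overlapped WT. STAT3KO differed from WT by -0.98 ± 0.17 (limma adjusted p = 0.000925) and from TLR9KO by -0.79 ± 0.15 (limma adjusted p = 0.00533). Got1, the cytosolic aspartate transaminase, had 71.0, 60.7, 64.4 and 59.1 RPKM in STAT3KO, 67.6, 87.2, 64.2 and 76.0 RPKM in TLR9KO and 81.4, 83.4 and 85.9 RPKM in WT. STAT3KO lay below WT without overlap, by -0.39 ± 0.11 (limma adjusted p = 0.0142), and TLR9KO overlapped both.

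Among the 8 tested transporters, 4 were called lower in STAT3KO than in WT (50%, against 14.8% of all tested genes) and 5 were called lower in TLR9KO than in WT (62.5%, against 10.6%). The libraries of 7 lay wholly below WT in STAT3KO and those of 5 in TLR9KO, where 16.9% and 13.3% of all tested genes did. None was called higher than WT in either knockout. Slc7a5, the light chain of the LAT1 carrier of large neutral amino acids such as leucine, had 21.5, 22.7, 19.3 and 21.1 RPKM in STAT3KO, 19.4, 26.2, 14.3 and 25.7 RPKM in TLR9KO and 67.0, 42.5 and 46.0 RPKM in WT. The highest knockout library was far below the lowest WT library. STAT3KO averaged 21.1 ± 1.42 RPKM, 40.8% of the 51.8 ± 13.2 RPKM in WT (log2 difference -1.23 ± 0.20, limma adjusted p = 0.000803), and TLR9KO averaged 21.4 ± 5.66 RPKM, which was 41.3% of WT (-1.25 ± 0.20, limma adjusted p = 0.00155). Its heavy chain partner Slc3a2 ranged from 179 to 207 RPKM in STAT3KO, 145 to 199 RPKM in TLR9KO, against 162 to 214 RPKM in WT. These ranges overlapped, and the differences from WT were 0.11 ± 0.13 in STAT3KO (limma adjusted p = 0.519) and -0.16 ± 0.13 in TLR9KO (limma adjusted p = 0.359). The sign of the Slc3a2 difference changed in STAT3KO after median-ratio scaling and in TLR9KO after GC and length correction.

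Slc38a1 and Slc1a5 carry glutamine and other neutral amino acids. Slc38a1 had 11.7, 9.89, 10.6 and 12.9 RPKM in STAT3KO, 13.5, 17.0, 10.6 and 14.1 RPKM in TLR9KO and 23.2, 20.8 and 18.9 RPKM in WT. Slc1a5 had 16.9, 21.6, 16.5 and 17.3 RPKM in STAT3KO, 16.4, 21.7, 17.3 and 23.1 RPKM in TLR9KO and 32.8, 30.2 and 23.7 RPKM in WT. Both genes were below WT in every knockout library, for Slc1a5 by a narrow margin between TLR9KO replicate 4 and WT replicate 3. In STAT3KO the differences from WT were -0.84 ± 0.14 for Slc38a1 (limma adjusted p = 0.000875) and -0.64 ± 0.15 for Slc1a5 (limma adjusted p = 0.00529). In TLR9KO they were -0.58 ± 0.14 for Slc38a1 (limma adjusted p = 0.0105) and -0.54 ± 0.15 for Slc1a5 (limma adjusted p = 0.0192). Without WT replicate 1 these TLR9KO calls were lost (limma adjusted p = 0.0519 for Slc38a1, over a range of 0.00389 to 0.0547, and 0.0895 for Slc1a5). After GC and length correction the Slc1a5 difference in TLR9KO was -0.28 (limma adjusted p = 0.209, over a range of 0.0133 to 0.209).

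Slc38a7, a glutamine and asparagine carrier of the lysosome, and Slc1a4, a carrier of serine, alanine and cysteine, passed in TLR9KO. Slc38a7 had 23.5, 25.6, 25.3 and 22.7 RPKM in STAT3KO, 27.8, 18.4, 16.4 and 21.6 RPKM in TLR9KO and 31.6, 28.3 and 28.3 RPKM in WT. Slc1a4 had 1.42, 1.11, 1.03 and 1.11 RPKM in STAT3KO, 1.15, 1.12, 0.40 and 0.96 RPKM in TLR9KO and 2.04, 1.63 and 1.85 RPKM in WT. In both genes every knockout library was below every WT library. The TLR9KO differences from WT were -0.49 ± 0.14 for Slc38a7 (limma adjusted p = 0.0254) and -0.59 ± 0.15 for Slc1a4 (limma adjusted p = 0.0117). The STAT3KO differences of -0.26 ± 0.14 and -0.39 ± 0.15 did not pass (limma adjusted p = 0.160 for Slc38a7 and 0.0509 for Slc1a4). Of the 19 alternatives, the STAT3KO difference passed in 3 for Slc38a7 and in 6 for Slc1a4. The Slc38a7 call was lost without TLR9KO replicate 2 (limma adjusted p = 0.0667), TLR9KO replicate 3 (0.0555), WT replicate 1 (0.0981) or WT replicate 3 (0.0560), and in a fit of only these 2 groups (0.0665), and after GC and length correction it was -0.22 (limma adjusted p = 0.292, over a range of 0.00231 to 0.354). The Slc1a4 call was lost without WT replicate 1 (limma adjusted p = 0.0534, over a range of 0.00395 to 0.0979), and after GC and length correction it was -0.36 (limma adjusted p = 0.0828). With a pseudocount of 0.1 RPKM the Slc1a4 difference was -1.03.

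Slc7a11, the cystine and glutamate exchanger that feeds glutathione synthesis, ranged from 1.36 to 2.54 RPKM in STAT3KO, 2.40 to 5.56 RPKM in TLR9KO, against 2.76 to 4.27 RPKM in WT. STAT3KO lay below WT without overlap and TLR9KO spanned the WT range. STAT3KO differed by -0.60 ± 0.21 from WT (limma adjusted p = 0.0407) and by -0.61 ± 0.20 from TLR9KO (limma adjusted p = 0.0452). The call against WT was lost without any 1 of STAT3KO replicates 2, 3 and 4, TLR9KO replicates 2 and 4 and WT replicates 1 and 3, with a limma adjusted p of up to 0.141 over the alternatives. It was also lost with the replicate block (limma adjusted p = 0.0506), after GC and length correction (0.0540), with both together (0.0867) and with no filter (0.0780). The call against TLR9KO was lost without any 1 of 9 libraries, the exceptions being TLR9KO replicate 3 and WT replicate 2, and after GC and length correction it was -0.38 (limma adjusted p = 0.214), and it was lost in a fit of only these 2 groups (0.0570) and with no filter (0.0856). Slc38a2, the carrier known for its induction by amino acid starvation, ranged from 14.4 to 17.3 RPKM in STAT3KO, 13.1 to 22.4 RPKM in TLR9KO, against 17.5 to 23.9 RPKM in WT, and passed in no comparison (limma adjusted p = 0.145 for STAT3KO against WT).

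**Figure D3:**
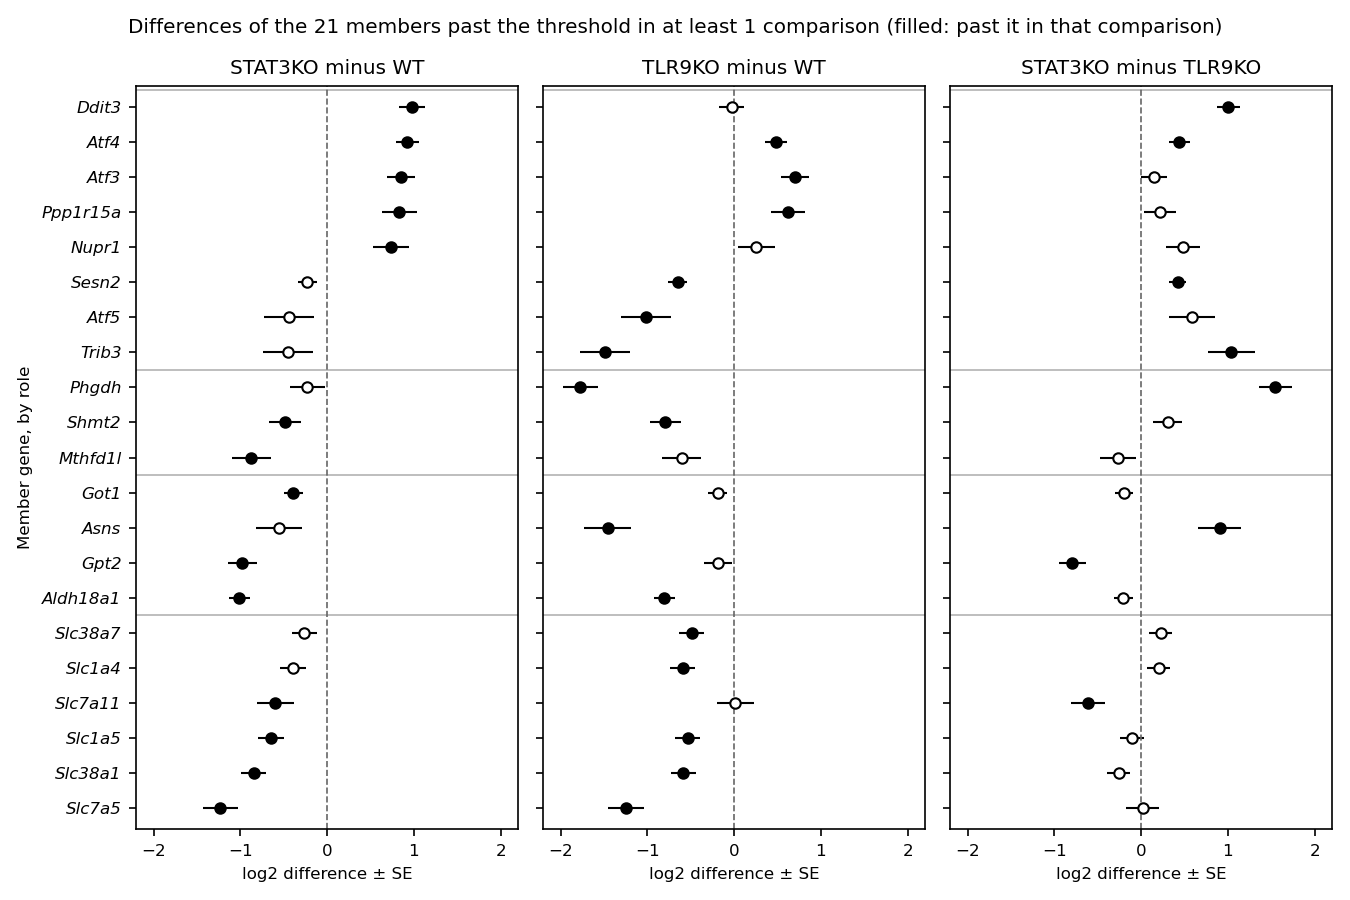
Points give the log2 difference of each of the 21 members past the threshold in at least 1 comparison and bars its standard error, with 1 panel per comparison and filled points where the member passed in that comparison. Regulators stand at the top, and Slc7a5 has nearly equal differences from WT in both knockouts (-1.23 and -1.25), while Phgdh differs from WT by -1.77 in TLR9KO and by -0.23 in STAT3KO.

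The 7 members below the filter were not tested. Slc6a9, a glycine transporter, ranged from 0.13 to 1.18 RPKM over the 11 libraries. Its values were 0.28 to 0.58 RPKM in STAT3KO, 0.13 to 0.51 RPKM in TLR9KO, against 0.60 to 1.18 RPKM in WT, so that both knockouts lay below WT. Pycr1, the last enzyme of proline synthesis, and Vldlr, a lipoprotein receptor, each reached at most 0.21 RPKM. Cth and Cbs, the enzymes that turn homocysteine into cysteine, reached 0.18 and 0.17 RPKM, the secreted glycoprotein Stc2 reached 0.15 RPKM, and the cationic amino acid carrier Slc7a3 reached 0.09 RPKM.

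Averaged over members, the roles ranked the groups differently. The mean log2(RPKM + 1) of the 11 regulators was 5.02 to 5.28 in STAT3KO, 4.59 to 4.95 in TLR9KO and 4.78 to 5.05 in WT. For the 7 serine and one-carbon enzymes it was 3.43 to 3.76 in STAT3KO, 3.08 to 3.55 in TLR9KO and 3.81 to 4.17 in WT. WT was thus the highest group in serine enzymes and STAT3KO in mean level of regulators, where it overlapped WT. The 10 transporters averaged 3.11 to 3.27 in STAT3KO, 2.93 to 3.36 in TLR9KO and 3.57 to 3.74 in WT, and the 7 other enzymes 2.28 to 2.48 in STAT3KO, 2.19 to 2.60 in TLR9KO and 2.76 to 2.89 in WT. Both knockouts were below WT without overlap in the last 2 roles. Over all 37 members the library means were 3.56, 3.63, 3.47 and 3.47 in STAT3KO, 3.50, 3.49, 3.16 and 3.41 in TLR9KO and 3.80, 3.63 and 3.76 in WT. No test was made on these means. TLR9KO replicate 3 was the lowest library, and it was the lowest of its group in 18 of the 30 tested members (60%), against 36.1% of all tested genes. WT replicate 1 was the highest of its group in 13 members (43.3%), against 32.3% of all tested genes. STAT3KO replicate 2 was the highest of its group in 15 members (50%), against 26.6% of all tested genes, and TLR9KO replicate 1 in 13 (43.3%), against 29.8%.

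**Figure D4:**
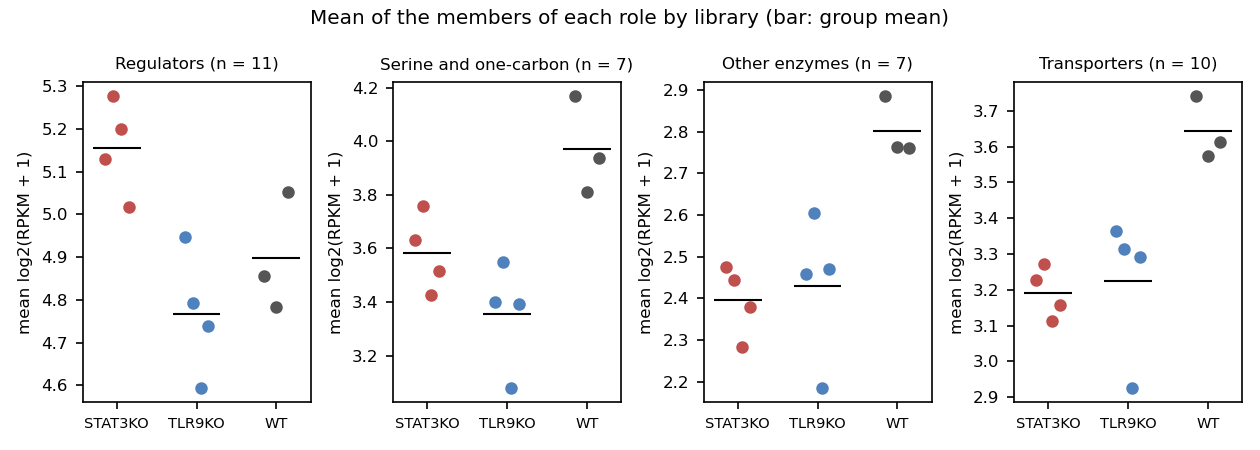
Each point is the mean log2(RPKM + 1) of the members of 1 role in 1 library, and the bar is the group mean, for STAT3KO, TLR9KO and WT. The axes do not start at 0 and differ between panels. The regulators reach their highest means in STAT3KO (5.02 to 5.28), overlapping WT, and the transporters are highest in WT (3.57 to 3.74).

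Genes around the module that are no members were counted from lists of the same or related pathways. Of 11 tested further genes reported as induced by ATF4, 5 were called higher in STAT3KO than in WT, and 5 higher in STAT3KO than in TLR9KO, while in TLR9KO 1 was called higher and 2 lower than WT. Of all tested genes, 29.2% were called higher in STAT3KO than in WT, 13.4% higher in STAT3KO than in TLR9KO, and 20% higher and 10.6% lower in TLR9KO than in WT. Gdf15, a secreted stress cytokine, averaged 103 ± 23.7 RPKM in STAT3KO, 38.3 ± 3.60 RPKM in TLR9KO and 33.7 ± 3.60 RPKM in WT. STAT3KO lay above both other groups without overlap (1.56 ± 0.16 against WT, limma adjusted p = 4.83e-05, and 1.38 ± 0.15 against TLR9KO, limma adjusted p = 0.000191). Gadd45a, a growth arrest gene, was higher in both knockouts, by 1.02 ± 0.17 in STAT3KO (limma adjusted p = 0.000827) and 0.53 ± 0.17 in TLR9KO (limma adjusted p = 0.0350). Map1lc3b, an autophagosome protein, was higher by 0.22 ± 0.07 in STAT3KO than in WT (limma adjusted p = 0.0213), and the autophagy receptor gene Sqstm1 by 0.82 ± 0.17 in STAT3KO than in TLR9KO (limma adjusted p = 0.00726). Pck2, the mitochondrial enzyme that makes phosphoenolpyruvate, averaged 10.1 ± 1.55 RPKM in STAT3KO, 4.69 ± 0.04 RPKM in TLR9KO and 8.66 ± 1.04 RPKM in WT. Its TLR9KO libraries lay below both other groups, by -0.76 ± 0.11 from WT (limma adjusted p = 0.000922), and STAT3KO exceeded TLR9KO by 0.95 ± 0.10 (limma adjusted p = 0.000191). Xpot, a tRNA exporter, was lower in TLR9KO than in WT by -0.36 ± 0.13 (limma adjusted p = 0.0496).

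The lists of eIF2 genes and of endoplasmic reticulum genes held calls in both directions, as did all tested genes. Of all tested genes, 29.2% were called higher and 14.8% lower in STAT3KO against WT, and 20% higher and 10.6% lower in TLR9KO against WT. Nothing particular to these lists is read from their counts. Of 14 tested genes of the eIF2 kinases, eIF2 and its exchange factor, 5 were called higher and 4 lower in STAT3KO than in WT, and 5 higher and 3 lower in TLR9KO than in WT. Eif2s2, the beta subunit of eIF2, averaged 27.4 ± 1.69 RPKM in STAT3KO, 28.7 ± 2.86 RPKM in TLR9KO and 13.0 ± 2.26 RPKM in WT. The differences from WT were 1.03 ± 0.12 in STAT3KO (limma adjusted p = 9.58e-05) and 1.09 ± 0.12 in TLR9KO (limma adjusted p = 0.000235). Gcn1l1, which GCN2 needs to sense uncharged tRNA, was lower in TLR9KO than in WT by -0.86 ± 0.14 (limma adjusted p = 0.00160). Of 18 tested genes of the endoplasmic reticulum chaperones and the ATF6 and IRE1 branches, 3 were called higher and 4 lower in STAT3KO than in WT, and 4 higher and 2 lower in TLR9KO than in WT, again beside the shares just given. Xbp1, the transcription factor of the IRE1 branch, averaged 81.6 ± 6.74 RPKM in STAT3KO, 136 ± 5.77 RPKM in TLR9KO and 158 ± 4.07 RPKM in WT, and it was lower in STAT3KO than in WT by -0.95 ± 0.08 (limma adjusted p = 2.18e-05) and than in TLR9KO by -0.73 ± 0.08 (limma adjusted p = 0.000169). The chaperone Hspa5 was higher in STAT3KO, at 479 ± 28.2 RPKM, than in WT, at 337 ± 24.6 RPKM (0.51 ± 0.11, limma adjusted p = 0.00327). Xbp1 and Hspa5 thus had opposite differences from WT in STAT3KO cells.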

How the data were processed

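RNA libraries of CD11b+ tumour myeloid cells (11 in all) were analysed from the authors' deposited RPKM values, 1 per gene symbol per library, per the file headers. For TLR9KO replicate 4 the header lacks a unit, and the values resemble those of the other libraries in range. Per the submitters' processing notes, the tools were Bowtie 0.12.7, TopHat 1.3.1, CASAVA 1.7 and Partek, and the build was mm9. Which annotation and read total lie behind the RPKM values, and how multi-mapping reads were treated, is not given in the sources used here. Genes that share sequence may therefore share reads.

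RPKM values are not counts, so no count model was fitted. Genes that averaged 1 RPKM or more were analysed as log2(RPKM + 1) in limma 3.58.1 (R 4.3.3), with 3 group means fitted to all 11 libraries and eBayes with trend. Tests were two-sided, with Benjamini-Hochberg adjustment over 10557 genes and a threshold of 0.05. RPKM means are given with the SD and log2 differences with the moderated SE. The fit was also run on simulated data with independent noise. Such data lack effects of single libraries, so that run does not measure how the fit performs on these data. Depth was estimated from the steps of low values and used for description only, and counting error was not measured. GC content and transcript length came from GENCODE M21, matched by symbol for 98.7% of tested genes and for all 37 members. Python 3.11.15, numpy 2.4.6, pandas 2.3.3 and matplotlib 3.10.9 were used for tables and figures.

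The members and gene lists were chosen with earlier results of these data known. Values in every library are printed for Atf4, Asns, Phgdh and Ddit3 and for called members by smallest p until 20 are given, and others by range. From each further list, up to 3 called genes with the smallest p per comparison could be named. Alternatives were median-ratio scaling, another pseudocount, no filter, a fit of 2 groups, array weights, a replicate block, GC and length correction, both of these, and each library left out.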

Additional observations from a re-analysis of the deposited data

Results flagged for a closer look

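Within groups of 4 libraries, 3 values of tested members stood apart from the other 3 libraries of their group, among 62 groups examined, where chance flags about 1 in 20. The gap to the nearest library, as a share of the group's range on the log2 scale, was 0.861 for Ddit3 in STAT3KO replicate 4, the lowest of its group at 61.5 RPKM. It was 0.886 for Psat1 in STAT3KO replicate 2, the highest at 41.5 RPKM. For Slc1a5 it was 0.839, again in STAT3KO replicate 2, the highest at 21.6 RPKM. Without STAT3KO replicate 2 Psat1 differed from WT by -0.58 in STAT3KO (limma adjusted p = 0.00408), in place of -0.42 (limma adjusted p = 0.0671). The calls of Ddit3 and Slc1a5 in STAT3KO against WT held with each library left out in turn.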

How the results depend on the processing

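Each comparison was recomputed under 19 alternatives, and no member call changed sign. Members called in STAT3KO against WT numbered 14, and 23 with array weights, and all genes called were 4648 and 5611. Between the knockouts array weights gave 13 members and 3807 genes called, in place of 8 and 2409. GC and length correction gave 1677 genes called in TLR9KO against WT, in place of 3229. The labels do not say whether replicate numbers pair the libraries. Correlations of deviations from the group means ran from -0.291 to 0.492 for same-numbered libraries and from -0.608 to 0.533 for differently numbered ones. With 3 to 4 libraries a group, these values cannot decide whether libraries were paired. With the replicate block alone, the members called were 13 in STAT3KO against WT, 15 in TLR9KO against WT and 8 between the knockouts. All genes called were then 4074, 2662 and 1879, in place of 4648, 3229 and 2409. With the replicate block and GC and length correction together the members called were 12, 9 and 6 in the same comparisons. All genes called were 3769, 1116 and 1791 in this setting. With 1 library left out, the members called in TLR9KO against WT ranged from 8 to 16 and all genes from 1985 to 3588, and between the knockouts from 4 to 10 and from 1577 to 2703.

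Differences that did not pass changed sign in some settings. Sesn2 in STAT3KO against WT was 0.083 after GC and length correction and 0.061 with the replicate block added. Ddit3 in TLR9KO against WT was 0.020 with the replicate block, and -0.15 to 0.18 with 1 library left out. Slc7a11 in TLR9KO against WT was -0.037 after median-ratio scaling, -0.087 with array weights, -0.21 after GC and length correction, -0.19 with the replicate block added and -0.16 to 0.16 with 1 library left out. Slc7a5 between the knockouts was -0.045 after median-ratio scaling, -0.16 with array weights, -0.019 after GC and length correction with or without the replicate block, and -0.15 to 0.12 with 1 library left out. The causes were not tested. Depth limits most the members near 1 RPKM, such as Slc1a4, Chac1 and Aldh1l2, and with 3 to 4 libraries a group a difference that did not pass is not shown to be absent.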

Other observations

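Single genes of amino acid transport and sensing beyond the members passed between genotypes. Of all tested genes, 29.2% were called higher and 14.8% lower in STAT3KO than in WT, and 20% higher and 10.6% lower in TLR9KO than in WT. Of 12 tested further amino acid transporters, 1 was called higher and 5 lower in STAT3KO than in WT, and 3 were called lower in TLR9KO than in WT. Slc7a1, a carrier of arginine and other cationic amino acids, averaged 8.38 ± 1.31 RPKM in STAT3KO, 8.23 ± 2.10 RPKM in TLR9KO and 20.1 ± 2.85 RPKM in WT (log2 differences from WT of -1.17 ± 0.19 and -1.22 ± 0.19, limma adjusted p = 0.000678 and 0.00122). Slc16a10, a carrier of aromatic amino acids, was higher in STAT3KO, at 15.1 ± 1.25 RPKM, than in WT, at 8.23 ± 1.73 RPKM (0.82 ± 0.14, limma adjusted p = 0.000805). Of 13 tested genes of amino acid sensing by mTORC1, 6 were called higher and 2 lower in STAT3KO than in WT, and 4 higher and 3 lower in TLR9KO than in WT. Rheb, the GTPase that activates mTORC1, was higher in STAT3KO by 0.58 ± 0.07 (limma adjusted p = 0.000169) and in TLR9KO by 0.66 ± 0.07 (limma adjusted p = 0.000248). Sesn1, a relative of Sesn2, was higher in STAT3KO, at 18.6 ± 4.79 RPKM, than in WT, at 8.19 ± 0.77 RPKM (1.06 ± 0.19, limma adjusted p = 0.00138).

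Of 11 tested cytosolic and remaining one-carbon enzymes, 5 were called higher and 2 lower in STAT3KO than in WT, and 2 were called higher in TLR9KO than in WT, where the shares of all tested genes given above are 29.2%, 14.8% and 20%. Mat2a, which makes S-adenosylmethionine, was lower in STAT3KO than in WT by -0.52 ± 0.10 (limma adjusted p = 0.00203).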
